A study of Homo sapiens with 6 samples.

Results

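ATP-dependent chromatin remodellers are large protein machines that use ATP to slide, evict or exchange nucleosomes and so open or close DNA to transcription factors. The mammalian SWI/SNF complex, also called BAF, comes in a canonical form, a polybromo form called PBAF and a non-canonical form, which share an ATPase and some other subunits but differ in the rest, and mutations of its subunits are frequent in carcinomas. The ISWI, CHD and INO80 families are built on other ATPases, and the ARID proteins share a DNA-binding domain with some SWI/SNF subunits without all belonging to the complex.

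The expression of 47 genes of these families was examined, out of 18132 genes measured. They were the 47 names of a set of SWI/SNF, ISWI, CHD and INO80 remodeller subunits and ARID proteins, each matched by symbol to probe sets annotated to that gene alone, and all 47 were found, with 161 probe sets in all. No gene had to pass a filter on its values. The set was drawn up with earlier results of the same comparison in view, so the counts below describe these genes and support nothing about the families as such. The arrays hold RNA from cells labelled TPC-1, a human papillary thyroid carcinoma line, and infected with lentivirus, with 3 samples labelled as carrying an shRNA against FAM60A and 3 labelled as carrying a control shRNA, each on 1 Affymetrix array. FAM60A, now named SINHCAF, encodes a component of the SIN3-HDAC co-repressor. No clone, infection time or shRNA sequence is given in the labels, and the samples of a group are described as independent but nothing says that they were separate cultures. The p-values therefore reflect how far these samples scatter, and that scatter may be technical.

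Values are log2 expression, centred so that the 6 arrays of a probe set have a median of 0, and averaged over the probe sets of a gene, and 0 therefore does not mean an absent transcript. They carry no level, and levels are therefore not compared between genes. A coarse level class of a probe set before centring (under 4, 4 to 8, or 8 or more on the log2 scale) could still be read from the rounding of the values. A gene was called higher or lower where limma, fitted on all 18132 genes, gave a Benjamini-Hochberg adjusted p under 0.05.

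The label of the knockdown went against its own target. SINHCAF had centred log2 values of 0.63, 0.57 and 0.60 in the arrays labelled FAM60A shRNA, against -0.58, -0.66 and -0.68 in those labelled control shRNA, and was thus higher in the arrays labelled FAM60A shRNA by 1.24 ± 0.038 (SE, n = 3 per group, limma, adjusted p = 1.08e-06; exact permutation test, two-sided, p = 0.1, the smallest that 3 against 3 arrays allow). Groups are therefore named by their labels, and every rise or fall below is one of the arrays labelled FAM60A shRNA relative to those labelled control shRNA. The extraction protocol names the colorectal line DLD1 in place of TPC-1. Of 9 thyroid follicular markers measured, 1 (DIO1) had a probe set in the class of 8 or more, and 0 differed between the labels. The class under 4 held 6 of the 7 probe sets of DIO1 and all those of DIO2 and TSHR. Of 10 intestinal markers, 4 (CDX2, KRT20, CDH17 and EPCAM) had a probe set in the class of 8 or more, and 2 (VIL1 and MUC2) had all probe sets in the class under 4. Of the same 10, 6 were higher and 0 lower (median log2 difference 0.50, range 0.030 to 2.20), and EPCAM did not pass (0.061; limma, adjusted p = 0.43). No class could be read for the 1 probe set of ASCL2 and 1 of 2 of LGR5, both higher, because classes were read only from values between -1 and 1. Of 5 leukocyte markers 2 were higher and 0 lower, and of 4 endothelial and 4 fibroblast markers 0 passed the test in either direction. The difference between 3′ and 5′ control probe sets, a sign of RNA quality, overlapped between the labels for GAPDH (-0.015 to 0.0093 and -0.0087 to 0.025) and for ACTB (-0.023 to -0.0056 and -0.010 to 0.053), with the arrays labelled FAM60A shRNA given first in each pair. The part of the intestinal markers in the results below was not tested.

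Of the 47 genes, 16 were higher, 15 were lower and 16 did not pass. Over all genes 44.9% passed, 19.8% as higher and 25.0% as lower, against 66.0%, 34.0% and 31.9% of the 47. Every count by complex or by form of SWI/SNF below is to be read beside these shares of all genes. The median log2 difference was 0.0031 for the 47 genes, with a range from -0.64 to 1.05, and -0.012 for all genes. Their median absolute difference was 0.19, against 0.12 over all genes. The arrays of the 2 labels did not overlap in 35 of the 47 genes (74.5%), against 53.2% of all genes. The median SE was 0.039 for the 47 genes and 0.044 over all genes. The lowest level class held 12.4% of their probe sets, against 25.4% of all. In the class of 8 or more 65.7% of their probe sets passed, against 62.5% of all in that class. The shares were 61.4% against 44.5% in the class of 4 to 8, and 20.0% against 11.2% under 4. The rises were the larger changes, with 9 of the 47 genes higher by at least 1.5-fold (4.14% of all genes) and 1 lower by at least 1.5-fold (2.82% of all genes). RNA was taken from whole cultures, in which a change in every cell and a change in the share of some cells cannot be told apart.

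**Figure D1:**
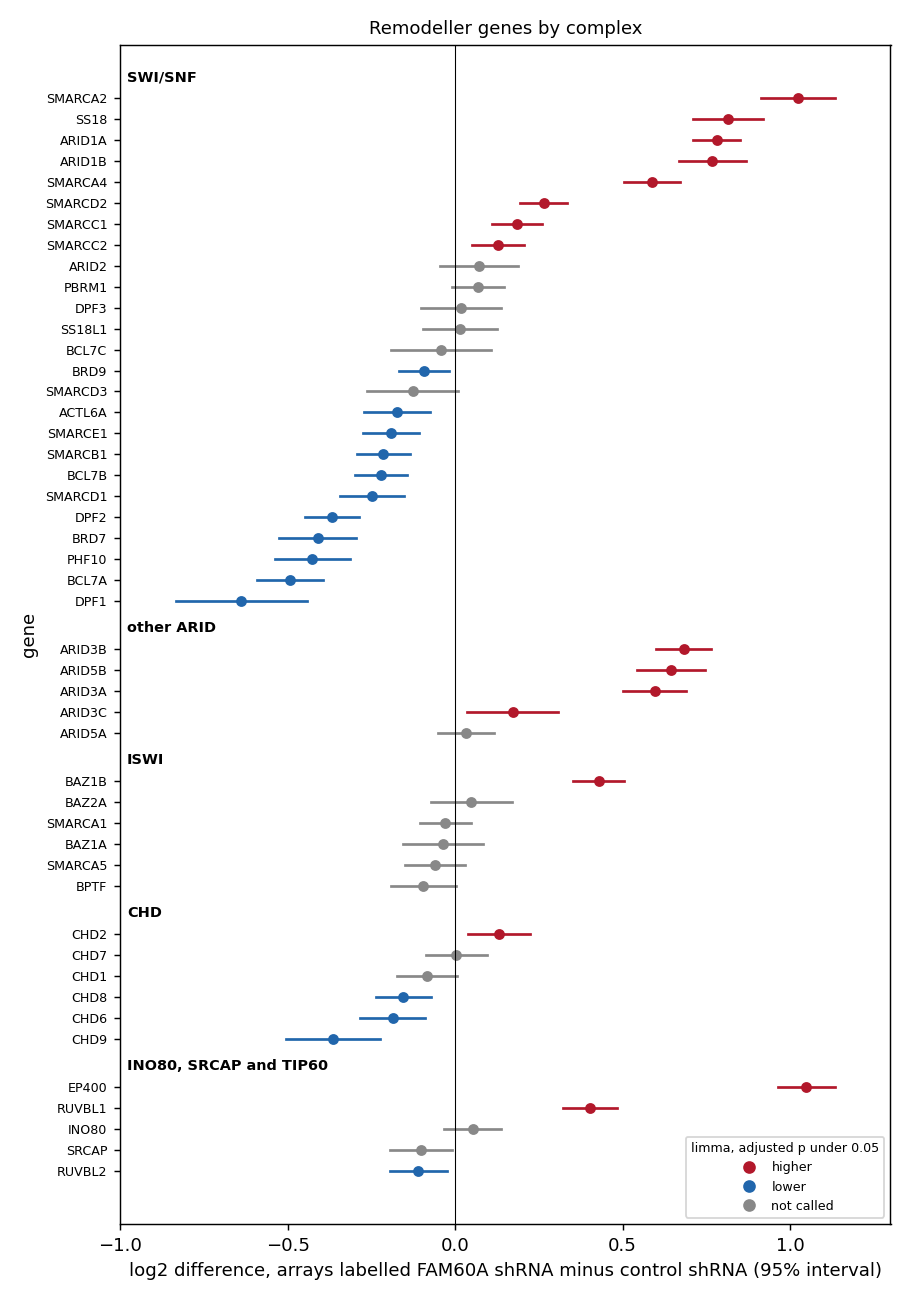
Log2 difference (horizontal axis, FAM60A shRNA label minus control shRNA label) of the 47 remodeller genes (vertical axis), grouped by complex, with points for the limma estimate, lines for its 95% confidence interval and colours for the call. SWI/SNF genes spread from -0.64 (DPF1) to 1.02 (SMARCA2), 4 of 5 ARID genes outside SWI/SNF lie to the right of 0 as called, and 5 of 6 ISWI genes are not called.

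The promoters of the 3 genes with the largest rise and the 3 with the largest fall are shown because these genes span the range of the changes. Each is the 200 bases before the RefSeq start farthest upstream (GRCh38.p14), written 5′ to 3′ on the gene's strand. Capitals mark matches, on either strand, to any of 8 motifs: the GC box GGGCGG, the CAAT box CCAAT, the TATA box TATAAA, the E-box CACGTG, the ETS-type motif CCGGAAG, the cyclic AMP response element TGACGTCA, the E2F-type motif TTTGGCGC and the NRF1-type palindrome.
EP400, higher, chr12:131949742-131949941, plus strand: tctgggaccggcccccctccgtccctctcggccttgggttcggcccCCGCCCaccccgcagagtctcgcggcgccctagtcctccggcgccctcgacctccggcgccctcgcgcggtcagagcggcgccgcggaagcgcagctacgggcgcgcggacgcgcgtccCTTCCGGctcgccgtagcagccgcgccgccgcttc
SMARCA2, higher, chr9:2015147-2015346, plus strand: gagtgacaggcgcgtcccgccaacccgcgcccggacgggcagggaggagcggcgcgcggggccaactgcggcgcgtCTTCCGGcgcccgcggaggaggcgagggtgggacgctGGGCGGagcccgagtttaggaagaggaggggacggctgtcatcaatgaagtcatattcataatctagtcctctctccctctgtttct
SS18, higher, chr18:26091220-26091419, minus strand: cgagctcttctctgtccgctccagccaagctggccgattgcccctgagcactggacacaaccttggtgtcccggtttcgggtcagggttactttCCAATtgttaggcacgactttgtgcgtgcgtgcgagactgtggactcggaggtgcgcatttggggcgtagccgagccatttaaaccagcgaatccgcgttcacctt
DPF1, lower, chr19:38229696-38229895, minus strand: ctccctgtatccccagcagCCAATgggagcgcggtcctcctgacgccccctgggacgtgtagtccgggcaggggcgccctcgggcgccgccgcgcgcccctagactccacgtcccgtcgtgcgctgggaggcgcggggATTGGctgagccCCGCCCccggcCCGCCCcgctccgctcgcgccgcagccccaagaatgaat
BCL7A, lower, chr12:122021684-122021883, plus strand: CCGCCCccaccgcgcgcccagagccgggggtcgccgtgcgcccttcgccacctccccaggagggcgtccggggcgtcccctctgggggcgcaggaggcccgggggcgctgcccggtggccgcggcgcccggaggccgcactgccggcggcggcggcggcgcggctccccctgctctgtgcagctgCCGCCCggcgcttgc
PHF10, lower, chr6:169724501-169724700, minus strand: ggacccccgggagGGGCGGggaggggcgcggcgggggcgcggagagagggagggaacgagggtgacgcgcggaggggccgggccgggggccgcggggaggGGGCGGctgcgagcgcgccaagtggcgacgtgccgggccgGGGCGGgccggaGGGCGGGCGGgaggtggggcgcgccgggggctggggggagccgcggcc
PHF10 held 5 matches to the GC box, of which a pair overlap, BCL7A 2, DPF1 2, EP400 1 and SMARCA2 1. DPF1 held 2 CCAAT matches and SS18 1, and an ETS-type match stood in EP400 and in SMARCA2. RefSeq windows were at hand for 37 of the 47 genes, 59 windows in all, so that some genes count more than once. The GC box stood in 9 of 22 windows of called higher genes (40.9%), in 15 of 19 of called lower genes (78.9%) and in 14 of 18 of genes not called (77.8%), which is 38 of 59 (64.4%), against 40.1% of all 35116 windows. CCAAT stood in 5 of 22 windows of higher genes (22.7%), 10 of 19 of lower genes (52.6%) and 4 of 18 of genes not called (22.2%), against 28.0% of all windows. The TATA box stood in 3 windows, all of higher genes, the E-box in 3, of which 2 were of lower genes and 1 of a gene not called, and the ETS-type motif in 3, of which 2 were of higher genes and 1 of a lower gene (5.1% of the 59 each, against 8.6%, 5.5% and 7.7% of all windows). Of the 59 windows, 0 held the cyclic AMP response element, the E2F-type motif or the NRF1-type motif (1.6%, 0.4% and 1.0% of all windows). A match is a run of letters and not a shown binding site.

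Both ATPases of SWI/SNF rose. SMARCA2 encodes BRM and SMARCA4 encodes BRG1, alternative motors of which each complex holds 1. SMARCA2 (Entrez gene 6595, chromosome 9) had values of 0.62, 0.47 and 0.52 in the arrays labelled FAM60A shRNA, against -0.48, -0.46 and -0.52 in those labelled control shRNA. The groups did not overlap, and the log2 difference was 1.02 ± 0.047 (SE, n = 3 per group), a 2.03-fold higher signal (limma, adjusted p = 4.55e-06). SMARCA4 (Entrez gene 6597, chromosome 19) read 0.32, 0.29 and 0.27 in the arrays labelled FAM60A shRNA, against -0.26, -0.34 and -0.28 in those labelled control shRNA. Its groups did not overlap either, with a log2 difference of 0.59 ± 0.035 (limma, adjusted p = 1.37e-05). All 8 probe sets of SMARCA2 and all 6 of SMARCA4 passed the test as higher, at 0.64 to 1.34 and 0.37 to 0.85.

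The subunits that mark the canonical BAF form went in both directions. ARID1A and ARID1B, large DNA-binding subunits that exclude each other from a complex, both rose. ARID1A had values of 0.40, 0.38 and 0.38 in the arrays labelled FAM60A shRNA, against -0.40, -0.41 and -0.37 in those labelled control shRNA, a log2 difference of 0.78 ± 0.030 (1.72-fold; limma, adjusted p = 2.28e-06). ARID1B had 0.35, 0.47 and 0.33 in the arrays labelled FAM60A shRNA, against -0.40, -0.37 and -0.38 in those labelled control shRNA, a difference of 0.77 ± 0.042 (1.70-fold; adjusted p = 9.39e-06). Every array labelled FAM60A shRNA lay above every array labelled control shRNA for both genes. Without the lowest level class ARID1A was at 0.95 and ARID1B at 0.77, and the difference between these genes was not tested. The DPF genes, which encode paralogous subunits with PHD fingers that read histone tails, did not rise. DPF1, known mainly from neurons, had -0.54, -0.24 and -0.28 in the arrays labelled FAM60A shRNA, against 0.30, 0.20 and 0.35 in those labelled control shRNA. It fell, with a log2 difference of -0.64 ± 0.083 (1.56-fold lower; limma, adjusted p = 5.50e-04). Its first array labelled FAM60A shRNA stood apart from the other two, and without it the difference was -0.54. DPF2, the widely expressed paralog, had -0.19, -0.15 and -0.17 in the arrays labelled FAM60A shRNA, against 0.18, 0.24 and 0.17 in those labelled control shRNA. These groups were tight and separate, with a log2 difference of -0.37 ± 0.034 (adjusted p = 1.03e-04). DPF3 overlapped between the labels, with a log2 difference of 0.016 (95% interval -0.10 to 0.14; adjusted p = 0.83), and both its probe sets lay in the lowest level class.

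Of the 7 core subunits, 3 rose, 3 fell and 1 did not pass, and all called changes were under 1.5-fold. The fallers included SMARCB1, the SNF5 homologue lost in rhabdoid tumours, SMARCE1, which carries an HMG box, and SMARCD1. SMARCB1 had values of -0.094, -0.11 and -0.15 in the arrays labelled FAM60A shRNA, against 0.064, 0.12 and 0.11 in those labelled control shRNA, with a log2 difference of -0.21 ± 0.033 (limma, adjusted p = 0.0013). That mean holds 3 probe sets of the class of 8 or more at -0.34 to -0.32 and 1 of the lowest class at 0.14, and without the lowest class it was -0.33. SMARCE1 had -0.091, -0.083 and -0.14 in the arrays labelled FAM60A shRNA, against 0.13, 0.084 and 0.047 in those labelled control shRNA, with a difference of -0.19 ± 0.035 (adjusted p = 0.0034). The arrays of the labels were separate for both genes. SMARCD1 had -0.14, -0.10 and -0.11 in the arrays labelled FAM60A shRNA, against 0.13, 0.070 and 0.20 in those labelled control shRNA, with a difference of -0.25 ± 0.040 (adjusted p = 0.0017). Its paralog SMARCD2 rose by 0.26 ± 0.030 (adjusted p = 2.65e-04), and SMARCD3, the third of these alternative subunits, had -0.13 and did not pass (adjusted p = 0.12). The scaffold subunits SMARCC1 and SMARCC2 rose by 0.19 ± 0.032 and 0.13 ± 0.033 (adjusted p = 0.0023 and 0.016). SMARCC2 lost its call without replicate 1 or 2 labelled FAM60A shRNA (0.12 and 0.12) and without replicate 2 or 3 labelled control shRNA (0.13 and 0.12), while SMARCD3 gained one without replicate 2 labelled control shRNA (-0.19).

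Among the 6 subunits that attach to the ATPase, SS18 rose and 3 others fell. SS18, the partner that is fused to SSX genes in synovial sarcoma, had values of 0.49, 0.45 and 0.35 in the arrays labelled FAM60A shRNA, against -0.36, -0.39 and -0.42 in those labelled control shRNA. The groups did not overlap, the log2 difference was 0.81 ± 0.045 (1.76-fold; limma, adjusted p = 9.24e-06), and all 7 probe sets passed as higher. Its paralog SS18L1, a subunit of neuronal complexes, had 0.015 (95% interval -0.096 to 0.13; adjusted p = 0.84), from 1 probe set that passed as higher and 1 of opposite sign that did not pass. The BCL7 proteins are small subunits found in all forms of the complex. BCL7A had -0.21, -0.23 and -0.24 in the arrays labelled FAM60A shRNA, against 0.18, 0.30 and 0.30 in those labelled control shRNA, a difference of -0.49 ± 0.042 (1.41-fold lower; adjusted p = 6.83e-05). BCL7B had -0.095, -0.12 and -0.15 in the arrays labelled FAM60A shRNA, against 0.069, 0.12 and 0.095 in those labelled control shRNA, a smaller fall with a difference of -0.22 ± 0.033 (adjusted p = 0.0011). BCL7C overlapped between the labels at -0.042 (95% interval -0.19 to 0.11; adjusted p = 0.65), the mean of a probe set of the class of 8 or more that passed as lower at -0.35 and another at 0.27 that did not pass. The actin-related subunit ACTL6A fell, with a difference of -0.17 ± 0.042 (adjusted p = 0.012).

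Of the 4 subunits that mark PBAF, 0 rose, 2 fell and 2 did not pass. PHF10, a PHD finger subunit, had values of -0.15, -0.30 and -0.23 in the arrays labelled FAM60A shRNA, against 0.17, 0.17 and 0.26 in those labelled control shRNA, a log2 difference of -0.43 ± 0.048 (limma, adjusted p = 2.60e-04). The bromodomain subunit BRD7 had -0.19, -0.15 and -0.29 in the arrays labelled FAM60A shRNA, against 0.27, 0.18 and 0.15 in those labelled control shRNA, a difference of -0.41 ± 0.049 (adjusted p = 3.47e-04). In both genes the arrays of the labels were separate. Probe sets of PHF10 in the class of 8 or more stood at -0.012 and 0.066 and did not pass. Those in the class of 4 to 8 stood at -0.82 and -0.93. BRD7 rests on 1 probe set, named s_at, a type that can match several genes. ARID2, the DNA-binding subunit, and PBRM1, the polybromo subunit lost in many renal carcinomas, had 0.072 (95% interval -0.044 to 0.19; adjusted p = 0.30) and 0.068 (-0.010 to 0.15; adjusted p = 0.15). The arrays of PBRM1 were separate by a small gap. PBRM1 passed as higher without the lowest level class (0.14; limma, adjusted p = 0.018), but stood at -0.065 without probe sets named x_at or s_at. BRD9, which marks the non-canonical form, was called lower with a difference of -0.093 ± 0.032 (adjusted p = 0.048), and that call was lost without any 1 of the 6 arrays, at -0.11 to -0.076. It was also lost after another quantile normalization and after cyclic loess, both run on the centred values (-0.074 and -0.067). The same held with the probe set of largest variance (-0.19) and without probe sets named x_at or s_at, which can match several genes (-0.087).

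**Figure D2:**
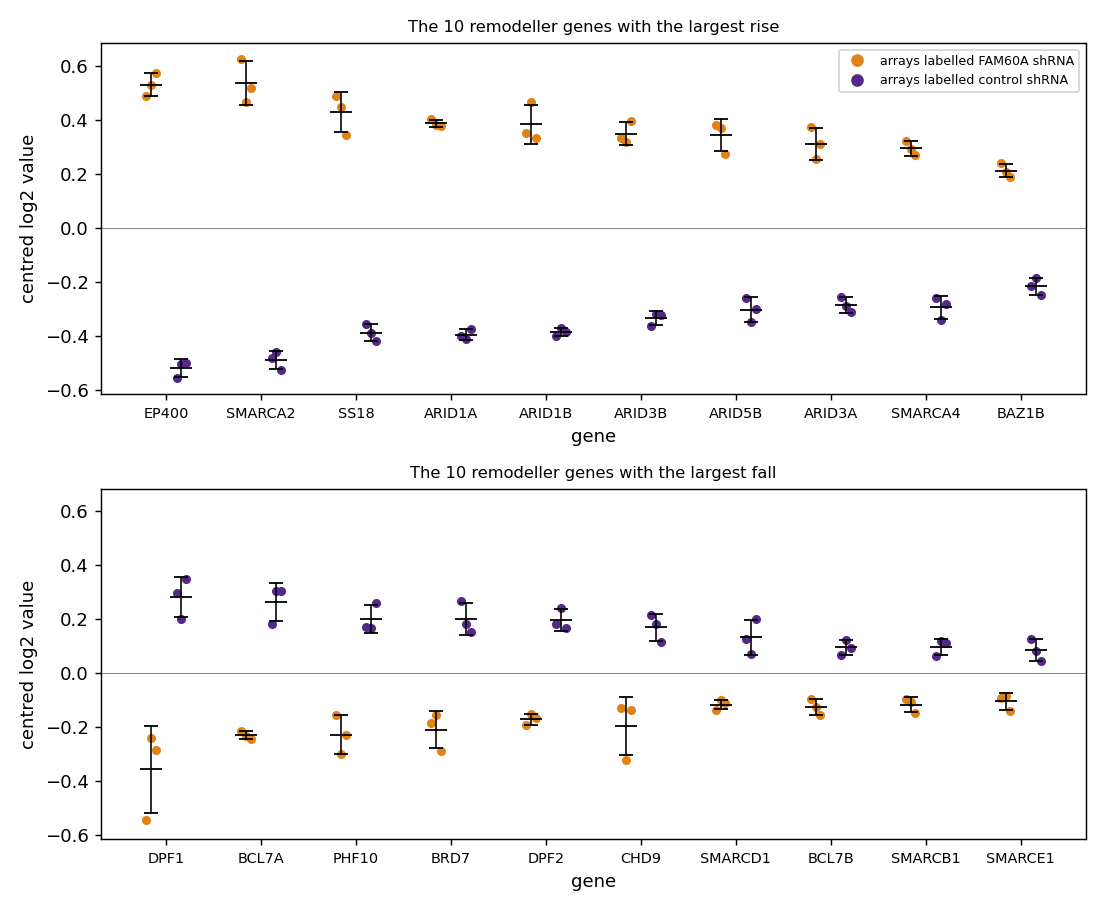
Centred log2 value (vertical axis, relative to the median of the 6 arrays) of the 10 remodeller genes with the largest rise (top) and the 10 with the largest fall (bottom), 1 point per array, with the mean and SD of 3 arrays. The 2 labels are separate in all 20 genes, against 53.2% of all genes. The 20 were chosen among called genes by the size of their difference, so this separation is largely built in. The widest spread within a label is that of DPF1 in the arrays labelled FAM60A shRNA (SD 0.162).

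ARID proteins outside SWI/SNF, which bind DNA as transcription factors or RNA, rose in 4 of 5 cases and fell in 0. Among all genes 19.8% were higher and 25.0% lower. ARID3B had values of 0.33, 0.32 and 0.40 in the arrays labelled FAM60A shRNA, against -0.36, -0.32 and -0.32 in those labelled control shRNA, a log2 difference of 0.68 ± 0.035 (1.60-fold; limma, adjusted p = 7.18e-06). Its relative ARID3A, first described as a B-cell factor, had 0.37, 0.25 and 0.31 in the arrays labelled FAM60A shRNA, against -0.25, -0.29 and -0.31 in those labelled control shRNA, a difference of 0.60 ± 0.040 (1.51-fold; adjusted p = 2.23e-05) from its 1 probe set. ARID5B, a co-activator that works with the demethylase PHF2, had 0.38, 0.37 and 0.27 in the arrays labelled FAM60A shRNA, against -0.26, -0.35 and -0.30 in those labelled control shRNA, a difference of 0.64 ± 0.043 (1.56-fold; adjusted p = 2.13e-05). The arrays of the labels did not overlap in any of these 3 genes. ARID3C had 0.17 ± 0.058 (adjusted p = 0.045) from a single probe set in the lowest level class, and it lost its call without replicate 2 or 3 labelled FAM60A shRNA (0.15 and 0.13) or replicate 2 or 3 labelled control shRNA (0.17 and 0.14). ARID5A, an RNA-binding protein that stabilises inflammatory transcripts, had 0.032 (95% interval -0.051 to 0.11; adjusted p = 0.52).

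ISWI complexes pair the ATPase SMARCA5 or SMARCA1 with a large partner that sets where they act, and 1 of 6 of their genes was called. BAZ1B, the WSTF partner of SMARCA5 in the WICH complex, had values of 0.24, 0.21 and 0.19 in the arrays labelled FAM60A shRNA, against -0.21, -0.19 and -0.25 in those labelled control shRNA. Its groups were tight and separate, with a log2 difference of 0.43 ± 0.033 (1.35-fold; limma, adjusted p = 3.99e-05) and all 3 probe sets passing as higher. SMARCA5 had -0.016, -0.049 and -0.022 in the arrays labelled FAM60A shRNA, against 0.098, -0.0021 and -0.0023 in those labelled control shRNA, a difference of -0.060 ± 0.038 that did not pass (adjusted p = 0.26). SMARCA1 had -0.038, -0.036 and 0.0060 in the arrays labelled FAM60A shRNA, against 0.0042, -0.020 and 0.034 in those labelled control shRNA, a difference of -0.029 ± 0.032 (adjusted p = 0.53), with 4 of its 5 probe sets in the lowest level class. The arrays of SMARCA1 overlapped, and those of SMARCA5 were separate by a small gap. The other partners BAZ1A, of the ACF complex (-0.037, 95% interval -0.16 to 0.083), BAZ2A, which silences ribosomal DNA in the NoRC complex (0.049, -0.073 to 0.17), and BPTF, the large subunit of NURF (-0.094, -0.19 to 0.0032), did not pass (adjusted p = 0.62, 0.51 and 0.11). BPTF gained a call as lower without replicate 3 labelled control shRNA (-0.13).

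The 6 CHD genes encode ATPases with paired chromodomains, and 3 fell, 1 rose and 2 did not pass. CHD9 had values of -0.13, -0.32 and -0.14 in the arrays labelled FAM60A shRNA, against 0.21, 0.18 and 0.11 in those labelled control shRNA, with a log2 difference of -0.36 ± 0.059 (1.29-fold lower; limma, adjusted p = 0.0017). The second array labelled FAM60A shRNA was the lowest by a margin, and without it the difference was -0.30. CHD6 had -0.15, -0.060 and -0.13 in the arrays labelled FAM60A shRNA, against 0.060, 0.030 and 0.13 in those labelled control shRNA, with a difference of -0.19 ± 0.041 (adjusted p = 0.0077). It averages a probe set called lower at -0.37 and 1 of the lowest level class at -0.0044, and without that class the value was -0.37. CHD8, a regulator of beta-catenin targets and a gene of autism, had -0.066, -0.051 and -0.045 in the arrays labelled FAM60A shRNA, against 0.12, 0.045 and 0.13 in those labelled control shRNA, with a difference of -0.15 ± 0.035 (adjusted p = 0.0089). The groups of CHD6 and CHD8 were separate by small gaps. CHD2 had 0.12, 0.035 and 0.032 in the arrays labelled FAM60A shRNA, against -0.11, -0.051 and -0.045 in those labelled control shRNA, a rise of 0.13 ± 0.039 (adjusted p = 0.028). That call was lost without replicate 1 labelled FAM60A shRNA (0.10) and without replicate 1 or 2 labelled control shRNA (0.11 and 0.14), and with the probe set of largest variance (0.098). CHD1, which binds methylated histone H3 at active genes, had -0.00063, -0.087 and -0.11 in the arrays labelled FAM60A shRNA, against 0.033, 0.019 and 0.00063 in those labelled control shRNA, a difference of -0.083 ± 0.038 that did not pass (adjusted p = 0.12), though it did without replicate 1 labelled FAM60A shRNA (-0.12). CHD7, the gene of CHARGE syndrome, had -0.027, 0.024 and 0.019 in the arrays labelled FAM60A shRNA, against 0.0065, -0.054 and 0.054 in those labelled control shRNA. Its groups overlapped, with a difference of 0.0031 (95% interval -0.088 to 0.094; adjusted p = 0.96).

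The INO80, SRCAP and TIP60 complexes exchange or move nucleosomes that carry the histone variant H2A.Z, and EP400, the ATPase of the TIP60 complex, had the largest change of the 47 genes. EP400 (Entrez gene 57634, chromosome 12) had values of 0.49, 0.53 and 0.57 in the arrays labelled FAM60A shRNA, against -0.56, -0.50 and -0.50 in those labelled control shRNA. All 3 arrays labelled FAM60A shRNA lay above all 3 labelled control shRNA, and the log2 difference was 1.05 ± 0.036 (2.07-fold; limma, adjusted p = 1.67e-06). The ATPase INO80 had 0.024, 0.037 and -0.014 in the arrays labelled FAM60A shRNA, against 0.014, -0.060 and -0.065 in those labelled control shRNA, a difference of 0.052 (95% interval -0.032 to 0.14; adjusted p = 0.29), with overlap. SRCAP had -0.061, -0.080 and 0.0010 in the arrays labelled FAM60A shRNA, against 0.011, 0.051 and 0.10 in those labelled control shRNA, a difference of -0.10 (-0.19 to -0.0096; adjusted p = 0.073), without overlap but also without a call. RUVBL1 and RUVBL2 encode AAA+ ATPases that form one mixed ring in these complexes. RUVBL1 rose by 0.40 ± 0.035 (1.32-fold; adjusted p = 7.06e-05), with all 3 probe sets passing, while RUVBL2 was called lower at -0.11 ± 0.036 (adjusted p = 0.043). The RUVBL2 call was lost without any 1 of the arrays labelled FAM60A shRNA (-0.12, -0.12 and -0.092) and without replicate 2 or 3 labelled control shRNA (-0.12 and -0.085). It was also lost after another quantile normalization and after cyclic loess, both run on the centred values (-0.092 and -0.083), and without probe sets named x_at or s_at (-0.073).

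Over all complexes, 4 of the 13 ATPase genes rose (EP400, SMARCA2, SMARCA4 and CHD2), 3 fell (CHD9, CHD6 and CHD8) and 6 did not pass. Over all genes 44.9% passed, 19.8% as higher and 25.0% as lower. The call of CHD2 was lost under some alternatives. The median log2 difference of the 13 genes was -0.029, against -0.012 for all genes.

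Probe sets of 1 gene did not always move together. Of 41 genes with several probe sets, 10 had every probe set past the test in 1 direction, and in 2, SMARCE1 and BAZ2A, probe sets passed in both directions. Such genes were not counted over all genes, so whether these numbers are usual is not known. Of the 161 probe sets 59 were higher and 35 lower, which is 58.4% past the test, against 40.8% of all 49293 probe sets other than controls, including those with several symbols or none. In SMARCE1, 3 of 6 probe sets passed as lower at -0.52 to -0.39 and 1 as higher at 0.20. In BAZ2A, 1 of 3 was lower at -0.29 and 1 higher at 0.27, both of the class of 8 or more. PHF10 split by level class, with 2 probe sets of the class of 8 or more at -0.012 and 0.066 and 2 of the class of 4 to 8 at -0.82 and -0.93, so that its gene value is an average of unlike values. For ARID1A, 5 probe sets lay between 0.88 and 1.02 and the remaining 1, of the lowest class, at -0.056. ARID3B had probe sets at 0.83, 1.23 and -0.0061, and the 5 probe sets of DPF1 ran from -1.07 to -0.34, of which 4 passed. All 6 probe sets of EP400 passed as higher, from 0.37 for the 1 in the lowest class to 1.59. With the probe set of largest variance in place of the mean, the size of the difference was over 1.5 times as large for SMARCB1 (-0.34), SMARCC1 (0.28), SMARCC2 (0.19), SMARCD1 (-0.43), SMARCE1 (-0.52), ARID5B (1.02), CHD6 (-0.37) and RUVBL2 (-0.22), as for BRD9, EP400, ARID3B, DPF1 and PHF10, with the same sign. That rule takes the variance over all 6 arrays, which includes the difference between the labels. It therefore favours probe sets with a large difference, and larger sizes under it are partly built in. Without probe sets named x_at or s_at, SMARCE1 was at -0.12, DPF1 at -1.04 and ARID3B at 1.03, and the calls of ARID1B, BRD7 and CHD9 rest wholly on s_at probe sets. The level class moved with the calls. Among the probe sets of the 47 genes, 4 of 20 of the class under 4 passed (20.0%), 43 of 70 of the class of 4 to 8 (61.4%) and 46 of 70 of the class of 8 or more (65.7%), against 11.2%, 44.5% and 62.5% of all probe sets in these classes. The lowest class held 16 of 17 control tags without a target and 12.4% of the probe sets of the 47 genes, against 25.4% of all.

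**Figure D3:**
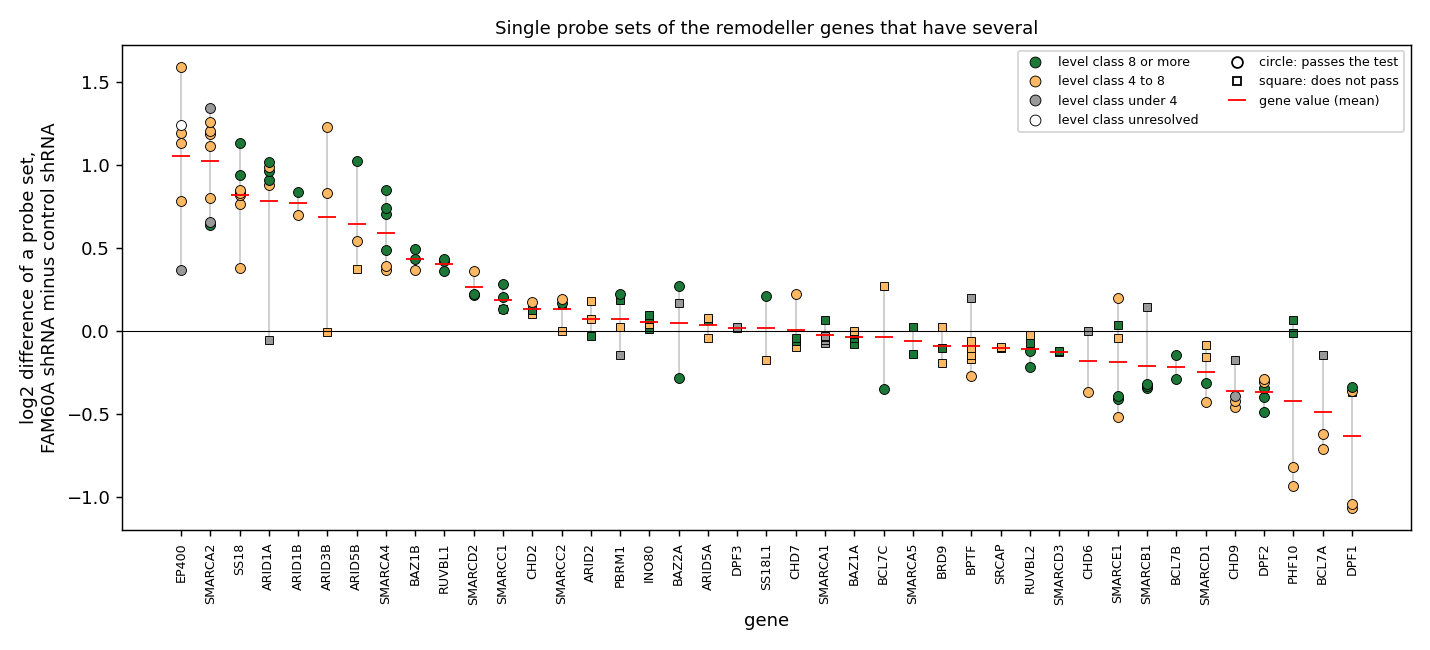
Log2 difference of single probe sets (vertical axis, arrays labelled FAM60A shRNA minus control shRNA) for the 41 remodeller genes with several probe sets (horizontal axis, ordered by the gene value), coloured by level class, with circles for probe sets that pass the test and squares for those that do not. EP400, SMARCA2, SS18 and SMARCA4 are among the genes with every probe set above 0. PHF10, SMARCE1 and BAZ2A are among the genes with probe sets on both sides of 0, as are SMARCB1, ARID2, BPTF and others.

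Further subunits of the same complexes and other ATPases of the SNF2 type, 50 measured of 51 listed, were mostly lower where they passed, with 6 higher, 24 lower and 20 not called. Over all genes 19.8% passed as higher and 25.0% as lower, and the counts by complex below are to be read beside these shares. The median log2 difference of the further genes was -0.092, against -0.012 for all genes. Of 25 further genes of the INO80, SRCAP and TIP60 complexes, 15 were lower, 3 higher and 7 not called, with a median of -0.23. TFPT, an INO80 subunit (-0.93 ± 0.030, limma, adjusted p = 1.25e-06), ING3, a histone reader of the TIP60 complex (-0.82 ± 0.038, adjusted p = 4.94e-06), MORF4L1, a chromodomain subunit of TIP60 (-0.59 ± 0.032, adjusted p = 8.66e-06), and ZNHIT1, a subunit of SRCAP (-0.31 ± 0.029, adjusted p = 1.17e-04), had the smallest p-values. These subunits fell in the same arrays in which EP400 and RUVBL1 were higher. The TIP60 scaffold TRRAP, a relative of the PI3 kinases, also fell (-0.29 ± 0.028, adjusted p = 1.22e-04), and the acetyltransferase KAT5 had -0.13 ± 0.036 (adjusted p = 0.022), both named after their values were seen. The 3 that rose were the INO80 subunits ACTR8 (0.35 ± 0.055, adjusted p = 0.0014), YY1 (0.32 ± 0.031, adjusted p = 1.22e-04) and NFRKB (0.25 ± 0.054, adjusted p = 0.0074), likewise named after their values were seen. Among 6 further ISWI genes, 4 were lower, 1 higher and 1 not called. RSF1 (-0.66 ± 0.033, adjusted p = 6.46e-06) and BAZ2B (-0.50 ± 0.029, adjusted p = 1.05e-05), partners of ISWI ATPases, fell most, followed by the histone-fold subunit CHRAC1 (-0.24) and HMGXB4 (-0.18). The 1 that rose was CECR2 (0.28), from a probe set of the lowest level class. Among 5 further SWI/SNF and related genes 1 passed, SMARCAL1 (0.33 ± 0.037, adjusted p = 2.84e-04), a replication fork ATPase. The non-canonical subunits BICRAL (0.11, adjusted p = 0.057) and BICRA (-0.090, adjusted p = 0.069) did not pass, nor did the neuronal actin-related subunit ACTL6B (0.22, adjusted p = 0.11). Of 13 other SNF2-type ATPases 5 were lower, 1 higher and 7 not called, with the repair factor ERCC6 (-0.48 ± 0.040), BTAF1 (-0.33 ± 0.038), the mitotic helicase ERCC6L (-0.49 ± 0.065) and ATRX (-0.19 ± 0.041) having the smallest p-values (adjusted p = 5.71e-05, 3.05e-04, 6.45e-04 and 0.0069). The 1 that rose was HELLS (0.23 ± 0.053, adjusted p = 0.0096), a helicase of DNA methylation, also named after its value was seen. CHD1L, the 1 further gene of the CHD group, had 0.094 (adjusted p = 0.079).

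**Figure D4:**
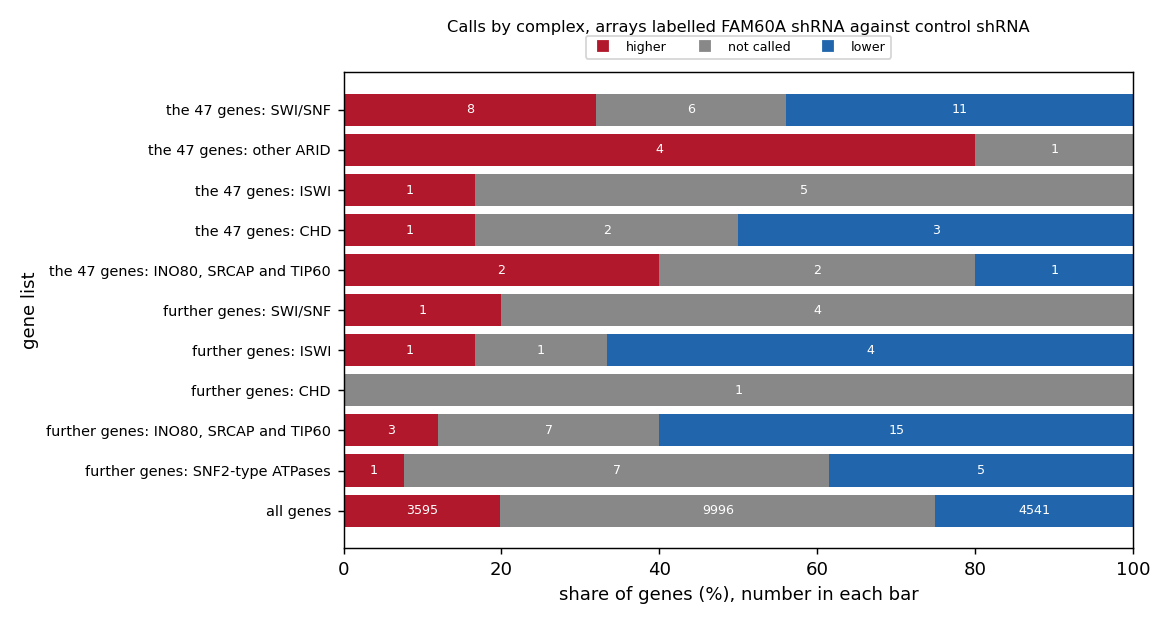
Share of genes (horizontal axis, percent) called higher, not called or called lower in the arrays labelled FAM60A shRNA against those labelled control shRNA, for the 47 remodeller genes by complex, for the 50 further genes by complex and for all 18132 genes (vertical axis), with the number of genes in each bar. Of the 25 further INO80, SRCAP and TIP60 genes 15 are lower, and 0 of the 5 ARID genes outside SWI/SNF are.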

How the data were processed

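Per the labels' protocols, RNA of 6 samples was biotin labelled for Affymetrix arrays, and samples were grouped by their titles. The authors deposited log2 expression for 49395 probe sets, with 0 missing values, for which the submitters' processing notes name RMA. That method corrects background, applies quantile normalization and combines probes into 1 value per probe set. Which program ran it is not given in the sources used here. Each probe set had a median of 0 (within 5e-07) across the 6 arrays. The deposited values are therefore centred, which keeps differences between arrays but drops the level. No source used here states the base of the logarithm, and 2 was assumed, as RMA gives. The number of arrays limits the precision.

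Gene names came from the annotation of the platform, with symbols checked against RefSeq (GRCh38.p14, 0 changed). Of the probe sets 44994 had 1 symbol, 1832 had several and 2569 had none, and only the first were used, without the 102 control probe sets. Their mean stood for each of 18132 genes, which dilutes a change that not all probe sets of a gene show. The labels were compared in 1 limma fit (lmFit, then eBayes; limma 3.58.1, R 4.3.3) on all 6 arrays as deposited by the authors, with Benjamini-Hochberg adjustment across every gene. Errors are standard errors of the difference with n = 3 per group. The fit and the level classes were tested on simulated data.

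Level classes rest on the rounding step of single-precision numbers, which doubles at levels of 2, 4, 8 and 16. The step of 16 or more, above what RMA usually gives, was found in 1261 probe sets, which were counted with the class of 8 or more, so the classes contain errors. A class could not be read for 88 probe sets. Promoter windows were taken from RefSeq. The genes and lists were chosen with earlier results of these data known. Values in every array were given for the 10 largest rises and the 10 largest falls among called genes and for the 13 ATPases, and up to 4 further genes per complex were named by smallest p. Other normalizations, probe set rules, array weights, the replicate number as a block and leaving out each array were tried as alternatives. The repeated quantile normalization and cyclic loess were run on the centred values. They therefore worked on deviations between arrays and not on expression levels.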

Additional observations from a re-analysis of the deposited data

Results flagged for a closer look

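A pair of probe sets annotated to a remodeller gene together with another gene were not used in the gene values. The probe set annotated to BPTF and ARHGAP27P1, of the level class of 8 or more, was lower in the arrays labelled FAM60A shRNA, at -0.098 to -0.056, than in those labelled control shRNA, at 0.056 to 0.14, a difference of -0.18 ± 0.042 on the log2 scale (limma, SE, n = 3 arrays each, adjusted p = 0.011), whereas BPTF itself did not pass. Of the 6 probe sets annotated to BPTF alone, 1 also passed as lower (-0.28; limma, adjusted p = 0.0039) and 0 as higher. The shared probe set drew attention because it passed the test but was not part of any gene value. The probe set annotated to SS18 and DDX27 stood at 0.12 ± 0.050 on the same scale and was not called (limma, adjusted p = 0.10).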

How the results depend on the processing

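Of the 31 called remodeller genes, 26 kept their direction and call under every alternative run for them, and the other 5 were BRD9, RUVBL2, ARID3C, CHD2 and SMARCC2, which kept their direction. The count of remodeller genes was 16 higher and 13 lower under cyclic loess and under a repeated quantile normalization, 15 and 12 without probe sets named x_at or s_at (44 genes left, without the called ARID1B, BRD7 and CHD9), 16 and 16 without the lowest level class (45 genes left), 20 and 17 where any passing probe set counted, and 13 to 15 and 13 to 14 without 1 array. The counts over all genes moved too, from 3595 higher and 4541 lower of 18132 in the main fit. They were 4063 and 4049 under cyclic loess, and 3929 and 4183 under the repeated quantile normalization. Without probe sets named x_at or s_at they were 3087 and 3912 of 16701 genes. Without the lowest level class they were 3670 and 4624 of 14834. SINHCAF stayed higher in every alternative, at 1.12 to 1.31. With the replicate number as a block, the remodeller genes were 14 higher and 13 lower (BRD9, RUVBL2, ARID3C and CHD2 lost their calls), and all genes 3630 higher and 4540 lower, against 3595 and 4541 without it. Deviations of same-numbered arrays correlated at 0.16, 0.059 and 0.078 over genes, so the numbers were not taken as pairs, though each array correlated best with its own number, a hint from the data and not from the design. Genes not called changed sign as follows, and none of the changed values passed. With the probe set of largest variance BCL7C was at 0.27 and SS18L1 at -0.18. Without x_at and s_at probe sets PBRM1 was at -0.065, BAZ2A at -0.061 and BPTF at 0.0094. Without the lowest level class SMARCA1 was at 0.062 and BAZ2A at -0.0091. Without 1 array the range was -0.017 to 0.056 for SS18L1, -0.030 to 0.046 for DPF3, -0.025 to 0.029 for CHD7, -0.065 to 0.0088 for BAZ1A, -0.091 to 0.026 for BCL7C and -0.0032 to 0.078 for BAZ2A. The cause was not tested. PBRM1, BPTF and CHD7 passed with the probe set of largest variance (0.22, -0.28 and 0.22), PBRM1 and BPTF also without the lowest level class (0.14 and -0.15), and SMARCA5 without x_at and s_at probe sets (-0.14). The rule of largest variance favours probe sets that differ between the labels. Calls kept or gained under it are therefore not independent of that choice.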
